A study of Homo sapiens with 6 samples.

Results

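The genes examined here are 10 classical genes of the epithelial-mesenchymal switch, chosen by name: the cadherins CDH1 and CDH2, the structural and matrix genes VIM and FN1, and the transcription factors SNAI1, SNAI2, ZEB1, ZEB2, TWIST1 and TWIST2. All 10 were found among the 25992 rows of the deposited gene table. They were measured by RNA sequencing in 786-O cells, a long-established human line from a clear cell kidney cancer in which the tumour suppressor VHL is lost. The 3 copper cultures were wild type 786-O cells adapted to copper sulfate that had been bound to serum proteins. Their labels read 30, 31 and 32 uM chronic copper, while the series text names 30 uM, and the 3 were taken as 1 group. The 3 control cultures received serum handled in the same way without copper. Both groups were grown in DMEM/F12 with 10% serum and came from the same line, so each is a model of 1 tumour only. In bulk RNA, fewer cells that make a transcript and less of it per cell cannot be told apart. The labels do not say whether the cultures were adapted separately, so the p-values below measure the spread between these libraries, which may be partly technical.

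Epithelial cells hold together through E-cadherin, the product of CDH1, which links neighbouring cells and binds catenins inside the cell. When cells take on a mesenchymal form, transcription factors of the SNAI, ZEB and TWIST families repress CDH1 by binding E-box sequences near its start, and the cells make N-cadherin (CDH2), the intermediate filament protein vimentin (VIM) and the matrix protein fibronectin (FN1). Kidney tubules form from mesenchyme and some of their segments carry N-cadherin, so in renal carcinoma N-cadherin alone does not mark a switch. MicroRNAs of the miR-200 family hold ZEB1 and ZEB2 down in epithelial cells, and the ZEB factors in turn repress the miR-200 genes.

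The miR-200 sequences and their matches in the ZEB transcripts are shown because the miR-200 family and the ZEB factors repress each other. The table held ZEB1 and ZEB2 transcripts and entries for the miR-200 genes, but no mature miRNA. The mature sequences below are from RefSeq GRCh38.p14, written 5′ to 3′ with the seed, bases 2 to 8, in capitals. The first 3 share a seed, and so do the last 2. The genes of miR-200b, miR-200a and miR-429 lie together on chromosome 1, where the mature sequences span 1167160 to 1169076, and those of miR-200c and miR-141 on chromosome 12, from 6963742 to 6964176, all on the plus strand.
hsa-miR-200b-3p: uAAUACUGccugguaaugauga
hsa-miR-200c-3p: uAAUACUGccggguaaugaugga
hsa-miR-429: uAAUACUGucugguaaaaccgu
hsa-miR-200a-3p: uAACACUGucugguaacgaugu
hsa-miR-141-3p: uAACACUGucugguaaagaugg

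The letters that pair with these seeds, CAGTATT for the first seed and CAGTGTT for the other, were searched on the sense strand only, in the longest annotated 3′ UTR of each protein-coding gene in GENCODE 29 (GRCh38). The ZEB1 3′ UTR (2549 bases) held 6 and 3 matches and that of ZEB2 (5370 bases) held 5 and 4, which makes 9 in each gene. Of the 19132 genes with a 3′ UTR, 28.3% held any match and 0.0314% held 9 or more. The density was 3.53 matches per kilobase in ZEB1, 1.68 in ZEB2 and 0.252 over all genes. The first match of each kind is printed with its surrounding bases and with the match in capitals. Those of ZEB1 lie in its 3′ UTR on the plus strand at chr10:31527624-31527645 and chr10:31528037-31528058, and those of ZEB2 in its 3′ UTR on the minus strand at chr2:144389047-144389068 and chr2:144389231-144389252. A match is a description of the letters and no evidence of binding in these cells.
ZEB1, first seed: ttatcttatCAGTATTatcact
ZEB1, second seed: catcagaatCAGTGTTtgtgat
ZEB2, first seed: accatacatCAGTATTtttatt
ZEB2, second seed: aattttgtaCAGTGTTaaggcc

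Copper libraries had between 16301772 and 18189469 counts, fewer than the 19219090 to 25079913 of control libraries. Replicate 3 stood apart in both groups. The first principal component of log2 CPM (counts per 1000000 counts of the library, after scaling between libraries) carried 57.9% of the variance and placed replicate 3 at 41.2 in copper and 17.6 in control, against -17.6 to -11.7 for the other libraries. Of 12 markers of renal epithelium and clear cell carcinoma 11 were measurable, among them the renal lineage factor PAX8 at 123 to 147 CPM, while the carbonic anhydrase CA9 was at 0 to 0.122 CPM. The summed level of these markers was 3037 to 3282 CPM in copper and 3261 to 3485 CPM in control. Of 12 markers of leukocytes, endothelium, fibroblasts, muscle and liver 2 passed the filter on low counts, LUM (1.57 to 4.71 CPM) and MYH11 (1.12 to 2.99 CPM). The 12 together summed to 6.21 to 7.12 CPM in copper and to 5.31 to 5.88 CPM in control, and the leukocyte gene PTPRC and the endothelial gene CDH5 were at most at 0.224 and 0.122 CPM. MT2A, a metallothionein that copper induces, was at 631, 724 and 803 CPM in copper and at 328, 349 and 351 CPM in control (log2 fold change 1.07, SE 0.11; adjusted p by edgeR 0.0843, and 0.00516 with the replicate number as a block).

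CDH1 RNA was near 0 in every library and CDH2 RNA was abundant. CDH1 (Entrez 999; chr16:68737292-68835536, plus strand) had 0, 2 and 3 counts in copper replicates 1, 2 and 3 and 1, 0 and 2 counts in control replicates 1, 2 and 3. The 5 counts of the copper libraries together correspond to 0.0948 CPM (95% exact Poisson interval 0.0308 to 0.221) and the 3 of the control libraries to 0.0466 CPM (0.00961 to 0.136). The ratio of copper to control was 2.03, with a 95% interval from 0.395 to 13.1. Such intervals cover counting error only. E-cadherin RNA was at or under the 0.121 to 0.183 CPM that 3 counts represent in a library, and at this depth no difference between the groups was detectable.

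CDH2 (Entrez 1000; chr18:27950966-28177130, minus strand) was at 453, 443 and 341 CPM in copper replicates 1, 2 and 3 and at 471, 472 and 448 CPM in control replicates 1, 2 and 3. Copper replicate 3 was the lowest of the 6, and the groups overlapped, since copper replicate 1 lay above control replicate 3. Copper averaged 412 ± 62.0 CPM and control 464 ± 13.6 CPM (SD, n = 3 each), which gave a log2 fold change of -0.17 (SE 0.13; adjusted p = 1.00 by edgeR, as for all 7 switch genes tested). The 95% interval of the fold ran from 0.726 to 1.09.

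CDH2 exceeded CDH1 by a wide ratio in both groups. Summed over libraries, CDH2 had 21657 counts against 5 of CDH1 in copper, a ratio of 4331 (95% exact interval 1856 to 13341), and 29884 against 3 in control, a ratio of 9961 (3408 to 48306). With 0.5 added to each count, the log2 ratio was 13.86, 11.63 and 10.82 in copper replicates 1, 2 and 3 and 12.93, 14.23 and 11.74 in control replicates 1, 2 and 3. The groups interleaved, and the mean difference of -0.87 gave p = 0.5 in an exact two-sided permutation test, which with 3 against 3 libraries cannot go below 0.1. The highest ratio of each group, 13.86 and 14.23, belonged to its library with 0 counts of CDH1.

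VIM RNA was the most abundant of the 10, and its group means differed by 0.285%. VIM (Entrez 7431; chr10:17228241-17237593, plus strand) was at 2838, 2763 and 3788 CPM in copper replicates 1, 2 and 3 and at 3188, 2891 and 3283 CPM in control replicates 1, 2 and 3. Replicate 3 was the highest library of each group, and the copper libraries lay on both sides of the control range. The means were 3130 ± 571 CPM and 3121 ± 205 CPM (SD, n = 3 each), a log2 fold change of 0.0041 (SE 0.15), and the 95% interval of the fold ran from 0.791 to 1.27.

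FN1 had a mean 26.4% above control and, of the 7 tested switch genes, varied most between copper libraries. FN1 (Entrez 2335; chr2:215360865-215436068, minus strand) was at 2440, 1592 and 1068 CPM in copper replicates 1, 2 and 3 and at 1615, 1306 and 1115 CPM in control replicates 1, 2 and 3. The highest library was copper replicate 1 and the lowest copper replicate 3, so the copper range enclosed the control range. The highest copper library was 2.29-fold the lowest, against 1.45-fold in control. The log2 fold change was 0.34 (SE 0.29), with a 95% interval of the fold from 0.793 to 2.01. Leaving out copper replicate 1, with every control library kept and no block, gave -0.02. The log2 difference of copper from control was 0.60, 0.29 and -0.06 in numbers 1, 2 and 3.

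**Figure D1:**
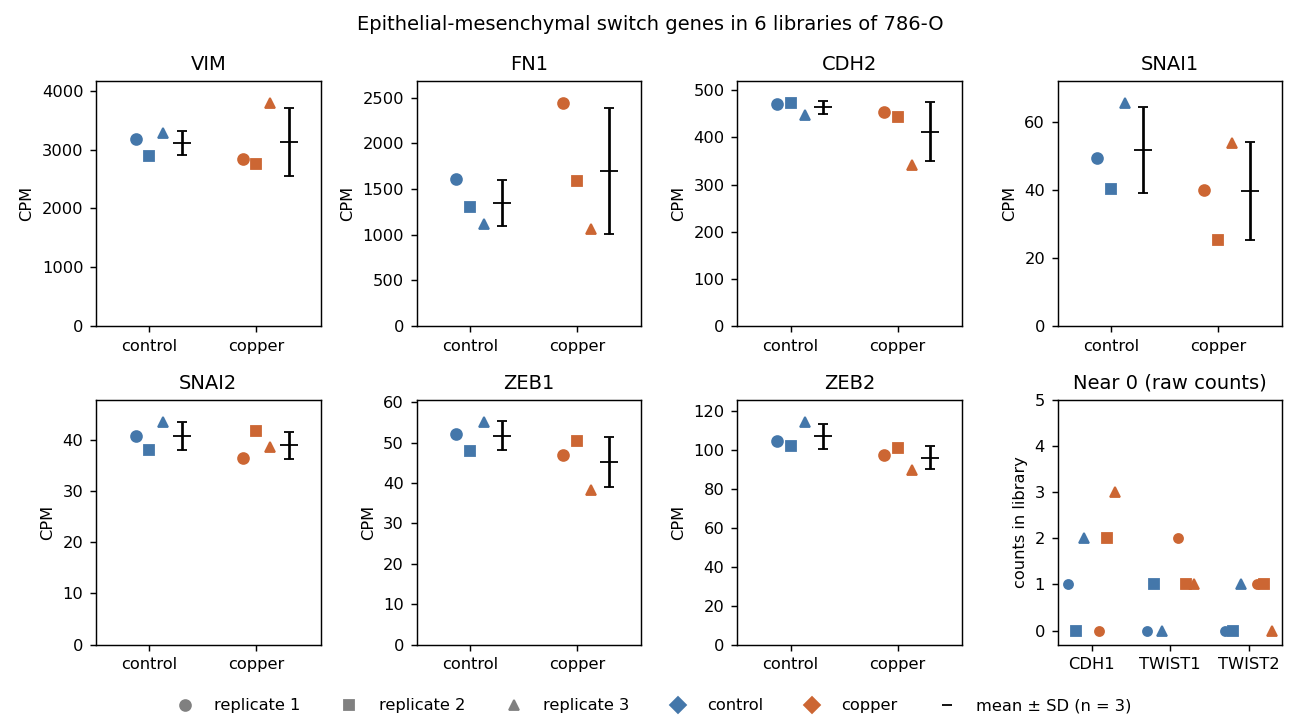
CPM of the 7 tested switch genes in each library (points; shape gives the replicate number) with mean ± SD of 3 libraries, and raw counts of CDH1, TWIST1 and TWIST2 in the last panel. The groups overlap in 6 of the 7 genes, and no library holds more than 3 counts of CDH1, TWIST1 or TWIST2.

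Of the 6 transcription factors, 4 were expressed in every library and both TWIST genes were near 0. SNAI1 encodes Snail, a zinc finger repressor with a short-lived protein. SNAI1 (Entrez 6615; chr20:49982980-49988883, plus strand) was at 40.1, 25.2 and 53.8 CPM in copper replicates 1, 2 and 3 and at 49.4, 40.3 and 65.4 CPM in control replicates 1, 2 and 3. Replicate 3 was the highest and replicate 2 the lowest in each group, and the groups overlapped. The log2 difference of copper from control was -0.30, -0.68 and -0.28 in numbers 1, 2 and 3. The spread within a group was 36.1% of the mean in copper and 24.6% in control, and the means, 39.7 ± 14.3 and 51.7 ± 12.7 CPM (SD, n = 3 each), differed by -23.3%. The log2 fold change was -0.38 (SE 0.28), with a 95% interval of the fold from 0.486 to 1.21. With the replicate number as a block the estimate was -0.41 (SE 0.10), unadjusted p = 0.00391 and adjusted p = 0.325 by edgeR. Without the block, leaving out copper replicate 2 gave -0.14 and leaving out copper replicate 3 gave -0.66.

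SNAI2, which encodes the related repressor Slug (Entrez 6591; chr8:48917598-48921429, minus strand), varied little within a group, with its highest library 1.14-fold its lowest in both. It was at 36.6, 41.8 and 38.6 CPM in copper replicates 1, 2 and 3 and at 40.9, 38.2 and 43.6 CPM in control replicates 1, 2 and 3. The groups interleaved, and the log2 fold change was -0.07 (SE 0.10), with a 95% interval of the fold from 0.810 to 1.12.

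ZEB1 and ZEB2 encode large repressors with zinc finger clusters at both ends. ZEB1 (Entrez 6935; chr10:31319216-31529804, plus strand) was at 46.9, 50.3 and 38.4 CPM in copper replicates 1, 2 and 3 and at 52.2, 47.9 and 55.2 CPM in control replicates 1, 2 and 3. The lowest library was copper replicate 3 and the highest control replicate 3, while copper replicate 2 lay above control replicate 2. The log2 fold change was -0.20 (SE 0.13), with a 95% interval of the fold from 0.713 to 1.07. An antisense gene, ZEB1-AS1, overlaps ZEB1 by 666 bases and had 175 to 265 counts per library, and since the use of strand in counting is not stated, reads in the overlap cannot be assigned with certainty.

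ZEB2 (Entrez 9839; chr2:144384081-144520119, minus strand) was at 97.3, 101 and 89.6 CPM in copper replicates 1, 2 and 3 and at 104, 102 and 114 CPM in control replicates 1, 2 and 3. It was the only tested switch gene whose groups did not overlap, by a margin of under 1 CPM between copper replicate 2 and control replicate 2. Among all 12944 genes tested the groups did not overlap in 10.8%, and in 5.35% copper was the lower group, beside 1 of the 7 switch genes. The log2 fold change was -0.16 (SE 0.10), with a 95% interval of the fold from 0.769 to 1.05 and an unadjusted p of 0.147, the smallest of the 7 by edgeR. Its antisense gene ZEB2-AS1 had at most 3 counts in a library.

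TWIST1 (Entrez 7291; chr7:19115468-19117636, minus strand) and TWIST2 (Entrez 117581; chr2:238848085-238887257, plus strand) encode basic helix-loop-helix factors of mesodermal development. TWIST1 had 2, 1 and 1 counts in copper replicates 1, 2 and 3 and 0, 1 and 0 in control replicates 1, 2 and 3. TWIST2 had 1, 1 and 0 counts in copper and 0, 0 and 1 in control, in the same order. Over all 6 libraries TWIST1 had 5 counts and TWIST2 had 3. The copper to control ratio was 4.88 for TWIST1 (95% interval 0.483 to 240.2) and 2.44 for TWIST2 (0.127 to 143.9), and both intervals include 1.

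The entries of the miR-200 genes also held few or no counts. MIR429 had 2 to 6 counts in a library, MIR200A 1 to 4 and MIR200B 0 or 1, while MIR200C and MIR141 had 0 in all 6. MIR200C and MIR141 lie inside their host gene MIR200CHG on the same strand, which had 0 or 1 counts in a library. How reads shared by overlapping genes were counted is not stated, so the 0 sets no upper level for MIR200C and MIR141. The summed level of the 8 table entries for the miR-200 family, miR-205 and their host genes was 0.305 to 0.486 CPM in copper and 0.322 to 0.419 CPM in control. Mature miRNAs were not measured. Their targets ZEB1 and ZEB2, with the matches printed above, were expressed in the same 6 libraries.

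Levels of different genes were compared per kilobase of annotated exon. In control libraries VIM was at 1671 ± 110 CPM per kilobase, FN1 at 148 ± 27.7, CDH2 at 104 ± 3.06, SNAI1 at 30.7 ± 7.53, SNAI2 at 16.9 ± 1.12, ZEB1 at 8.05 ± 0.565 and ZEB2 at 8.01 ± 0.495 (SD, n = 3). In copper the order was the same except for the last pair, with VIM at 1675 ± 306, FN1 at 187 ± 76.1, CDH2 at 92.7 ± 13.9, SNAI1 at 23.5 ± 8.49, SNAI2 at 16.1 ± 1.07, ZEB2 at 7.19 ± 0.442 and ZEB1 at 7.02 ± 0.957 CPM per kilobase. With lengths of 6435 bases for ZEB1 and 13357 for ZEB2, the 2 genes did not differ beyond their spread in either group. Before division by length ZEB2 was higher, at 107 ± 6.61 CPM in control against 51.8 ± 3.63 for ZEB1. SNAI1 and SNAI2 overlapped in copper, where SNAI1 was lowest at 14.9, but not in control, where SNAI1 was at least at 23.9 and SNAI2 at most at 18.0. CDH1, TWIST1 and TWIST2 were at or below 0.0732 CPM per kilobase in every library, where the lowest value of ZEB1 was 5.96, and could not be ordered among themselves.

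**Figure D2:**
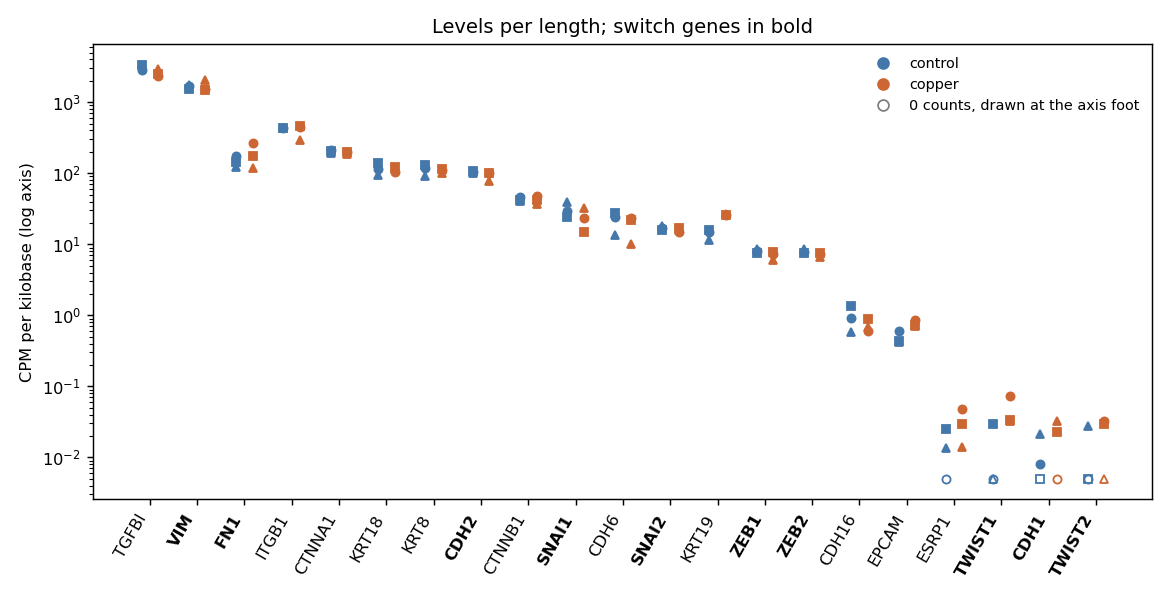
Level in CPM per kilobase of exon (log axis) of the 10 switch genes (bold) and 11 genes around them in each control and copper library. Shapes give the replicate number as circle, square and triangle for 1, 2 and 3, and open symbols are libraries with 0 counts. VIM, FN1 and CDH2 stand above the SNAI and ZEB factors, and CDH1, TWIST1 and TWIST2 lie at the foot.

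Between copper and control, 0 of the 7 tested switch genes were called at an adjusted p under 0.05 by edgeR, and 0 had an unadjusted p under 0.05. DESeq2 and limma-voom also called 0, with 0 at an unadjusted p under 0.05. Over all 12944 genes tested, edgeR called 0, with 3.52% at an unadjusted p under 0.05. DESeq2 called 27 genes and limma-voom 0. With the replicate number as a block, edgeR called 22 genes (0.17% of those tested), none of them a switch gene. At an unadjusted p under 0.05 the blocked fit had 1 switch gene, SNAI1, beside 8.41% of all genes. A p that misses the threshold does not show equal levels: without the block the intervals allow a fold as low as 0.486 for SNAI1 and as high as 2.01 for FN1. With the block they ran from 0.635 to 0.886 for SNAI1 and from 0.997 to 1.46 for FN1, whose blocked log2 fold change was 0.27 (SE 0.12, unadjusted p = 0.0527, adjusted p = 0.593 by edgeR). These blocked intervals are for each gene alone, and neither gene passed the threshold adjusted over all genes.

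Of the 7, 5 had a lower mean estimate in copper and 2, VIM and FN1, a higher one, and the median log2 fold change was -0.16, beside 0.0052 over all genes tested. VIM changed sign in 7 of 18 alternative analyses, and FN1 in 1. CDH2, SNAI1 and ZEB2 were lower in copper in all 3 numbers, a pattern that 17.0% of all tested genes shared, and 0 of the 7 were higher in all 3, beside 17.8% of all tested genes. For CDH2 the differences were -0.05, -0.09 and -0.39 in numbers 1, 2 and 3, for ZEB2 -0.10, -0.01 and -0.35 and for ZEB1 -0.15, 0.07 and -0.52, so the difference of these 3 genes was largest in number 3. In the fit of replicates 1 and 2 alone their log2 fold changes were -0.07, -0.06 and -0.04. The smallest count of any tested member was 449, for SNAI1 in copper replicate 2, with a counting error of 4.72%. The SD between libraries was larger than the counting error in all 7.

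Replicates 1 and 2 were also fitted alone. Without the block 0 switch genes were called, while 0.856% of all genes were. With the block in those 4 libraries SNAI1 was called lower, with a log2 fold change of -0.47 and an adjusted p of 0.00239 by edgeR. That fit, which has 1 residual degree of freedom per gene, called 912 genes, 7.03% of those tested, beside which the 1 of 7 switch genes is to be read.

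**Figure D3:**
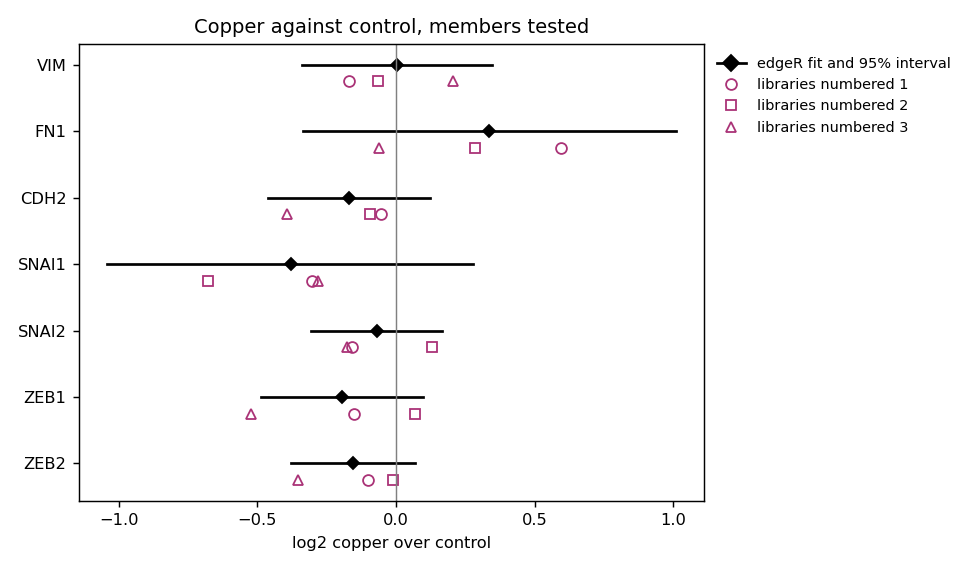
Log2 ratio of copper to control for the 7 tested switch genes: diamonds and lines give the edgeR estimate with its 95% interval, open symbols the difference between libraries of the same number. All 7 intervals, from the fit without the block, include 0, and the estimates run from -0.38 for SNAI1 to 0.34 for FN1. With the replicate block, not drawn, the fold interval of SNAI1 ran from 0.635 to 0.886 (adjusted p = 0.325 by edgeR).

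ZEB2, the tested member with the smallest p, was compared with every other tested gene for likeness of pattern. The highest Pearson correlations of log2 CPM over the 6 libraries were those of NAPG (r = 0.997), DDX17 (r = 0.997) and SLCO5A1 (r = 0.996). They are given as a description: the points share their libraries and replicate 3, and 242 of 12943 genes had r over 0.9.

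Around the switch, 143 tested genes of 10 lists were read from the same fit, and 0 were called by edgeR. At an unadjusted p under 0.05 there were 9, 6.29% beside 3.52% of all genes. With the replicate block, 8.41% of all genes had an unadjusted p under 0.05 by edgeR. The lists then held 9 of 32 mesenchymal genes (8 lower), 4 of 21 epithelial genes (all higher) and 3 of 16 fibronectin receptor genes. They also held 2 of 24 partners of the factors, 2 of 6 other cadherins, 1 of 12 junction genes and 1 of 9 filament genes, all lower. Of the 20 TGF-beta genes there were 0. DESeq2, the fit without a filter and the fit with the replicate block each called 1 gene, KRT19.

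Over all genes tested, 6657 had a higher and 6287 a lower estimate in copper. Of the genes that act with or on the factors, 24 of 29 were tested, 4 were higher and 20 lower, the median log2 fold change was -0.05, and there were 0 at an unadjusted p under 0.05. KDM1A, a histone demethylase that Snail recruits to promoters, was at 221 ± 6.26 CPM in copper and 228 ± 3.79 in control (SD, n = 3 each). GSK3B, a kinase that marks Snail for degradation, was at 70.8 ± 7.94 and 75.1 ± 0.854 CPM. LOXL2, a lysyl oxidase with copper at its active site that also binds Snail, was at 901 ± 128 and 905 ± 111 CPM. The smallest p of the list was that of LATS2, a kinase of the Hippo pathway that also phosphorylates Snail, with a log2 fold change of -0.26 (SE 0.11, unadjusted p = 0.0530). In replicates 1 and 2 alone it was -0.14.

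TGF-beta is a well known inducer of SNAI and ZEB transcription. Of 20 tested ligands, receptors and SMADs (of 21), 2 were higher and 18 lower, with a median of -0.15 and 0 at an unadjusted p under 0.05. The median difference was -0.03, -0.09 and -0.29 in numbers 1, 2 and 3, so it was largest in replicate 3. The ligand TGFB1 was at 163, 169 and 278 CPM in copper replicates 1, 2 and 3 and at 209, 213 and 245 CPM in control replicates 1, 2 and 3. Its copper replicate 3 was the highest of the 6 and its copper replicates 1 and 2 the lowest. Over all 6 libraries its log2 fold change was -0.13 (SE 0.21), while in replicates 1 and 2 alone it was -0.35, with an adjusted p of 0.0133 by edgeR. The receptor TGFBR2 had a log2 fold change of 0.10 (SE 0.11), and the signal carriers SMAD3 and SMAD4 of -0.19 (SE 0.27) and -0.17 (SE 0.09). SMAD4 was called lower by edgeR in replicates 1 and 2 with the block, at -0.20 with an adjusted p of 0.0143. That fit called 7.03% of all genes tested.

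The partners of the cadherins inside the cell were present beside the low CDH1. Alpha-catenin (CTNNA1) was at 759 ± 33.3 CPM in copper and 792 ± 35.1 in control, and beta-catenin (CTNNB1) at 332 ± 44.1 and 336 ± 23.3 (SD, n = 3 each). The p120 catenin gene CTNND1, whose product holds cadherins at the membrane, was at 14.0 ± 0.367 and 15.8 ± 1.54 CPM. Per length its counts were far lower than those of CTNNA1, at 2.01 and 2.27 CPM per kilobase against 194 and 202. Overlap with other genes was not checked for CTNND1, and the counter is not stated. Whether reads were lost to an overlapping gene was not tested. Of 12 tested junction genes (of 14), 5 were higher and 7 lower, with a median of -0.04 and 0 at an unadjusted p under 0.05. The smallest p was that of AFDN, which links nectins to actin, with a log2 fold change of -0.26 (SE 0.13, unadjusted p = 0.0779). In replicates 1 and 2 alone it was -0.12.

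Other cadherins were measured beside the main pair. CDH6, a cadherin of the developing kidney and of renal carcinoma, was at 211, 198 and 90.8 CPM in copper replicates 1, 2 and 3 and at 217, 249 and 121 CPM in control replicates 1, 2 and 3. Replicate 3 was the lowest library of both groups, and the log2 fold change without the block was -0.23 (SE 0.36). The differences of CDH6 were -0.04, -0.33 and -0.41 in numbers 1, 2 and 3. With the replicate block the estimate was -0.26 (SE 0.10), with unadjusted p = 0.0263 and adjusted p = 0.536 by edgeR. In that fit 8.41% of all genes had an unadjusted p under 0.05. CDH16, the kidney-specific cadherin of tubules, was at 2.15 ± 0.443 and 2.81 ± 1.12 CPM (SD, n = 3 each). Of 6 tested (of 9), 1 was higher and 5 lower, with a median of -0.27. CDH11, a cadherin of mesenchymal cells, had the smallest p, with 12, 21 and 21 counts in copper and 40, 54 and 25 in control and a log2 fold change of -0.80 (SE 0.35, unadjusted p = 0.0399). CDH11 was called lower by edgeR in replicates 1 and 2 with the block, at -1.08 with an adjusted p of 0.0236, beside 7.03% of all genes.

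KRT19 had the smallest p of the epithelial genes. KRT19, a keratin of simple epithelia, was at 35.4, 35.5 and 37.7 CPM in copper replicates 1, 2 and 3 and at 20.6, 22.2 and 16.1 CPM in control replicates 1, 2 and 3. Every copper library was above every control library, and in 10.8% of all genes tested the groups did not overlap in either direction. The log2 fold change of KRT19 was 0.88 (SE 0.13). Its adjusted p was 0.241 by edgeR without the block, 0.0464 with it, 3.83e-05 by DESeq2 and 0.00198 in replicates 1 and 2 alone. Of 21 tested epithelial genes (of 36), 14 were higher and 7 lower, with a median of 0.07 and 3 at an unadjusted p under 0.05, all higher: KRT19, SPINT2 and EPCAM. EPCAM, an adhesion molecule of epithelia, was low in both groups, at 1.52 ± 0.162 CPM in copper and 0.976 ± 0.201 in control (SD, n = 3 each; log2 fold change 0.58, SE 0.26). SPINT2, an inhibitor of membrane proteases that is outside the naming rule and was chosen after its values were seen, had a log2 fold change of 0.68 (SE 0.21). KRT8 and KRT18, the keratin pair of simple epithelia, were abundant in both groups, with log2 fold changes of -0.07 (SE 0.14) and -0.02 (SE 0.15). Both were called lower by edgeR in replicates 1 and 2 with the block, with log2 fold changes of -0.15 and -0.16 and adjusted p-values of 0.0219 and 0.0166. In number 3, outside that fit, the differences went the other way, at 0.13 and 0.30. The fit called 7.03% of all genes tested. The splicing factor ESRP1, a mark of epithelial cells, was under the filter with at most 0.183 CPM, and the tight junction gene TJP1 was at 184 ± 56.3 and 193 ± 31.3 CPM.

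Matrix and contractile genes of mesenchymal cells were tested in 32 of 38 cases, and 10 were higher and 22 lower, with a median of -0.15. At an unadjusted p under 0.05 there were 3, all lower: COL5A1, COL6A2 and COL1A1, the last 2 chosen after their values were seen. COL5A1, a chain of fibrillar type V collagen, was at 3.17, 4.43 and 3.94 CPM in copper replicates 1, 2 and 3 and at 6.07, 7.45 and 6.76 CPM in control replicates 1, 2 and 3. No copper library reached the lowest control library, as in 5.35% of all genes tested, and edgeR gave a log2 fold change of -0.79 (SE 0.18; adjusted p = 0.804). COL6A2 and COL1A1 had log2 fold changes of -0.51 (SE 0.17) and -0.90 (SE 0.37). The TGF-beta target TGFBI was among the most abundant transcripts of the lists, at 7411 ± 892 CPM in copper and 9097 ± 867 in control (SD, n = 3 each; log2 fold change -0.30, SE 0.14). With the replicate block in all libraries TGFBI was at -0.30 (SE 0.08; adjusted p = 0.342 by edgeR). TGFBI was called lower by edgeR in replicates 1 and 2 with the block, at -0.34 with an adjusted p of 1.2e-05, and COL5A1 at -0.82 with 0.00268. Of all genes tested, 7.03% were called in that fit. LUM, which is on the list of markers of other cells as well, had a log2 fold change of 0.51 (SE 0.36). Markers of other cells summed higher in copper, as given above. Of those that passed the filter, LUM averaged 3.47 CPM in copper and 2.40 in control, while MYH11 was lower in copper, at 1.87 and 2.32. The part of these markers in the differences was not tested.

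Fibronectin is bound by integrins. Its main receptor pair, ITGA5 and ITGB1, was at 184 ± 29.6 and 1587 ± 363 CPM in copper and at 193 ± 14.0 and 1714 ± 24.6 CPM in control (SD, n = 3 each). The log2 fold changes were -0.07 (SE 0.13) and -0.11 (SE 0.17). ITGA5 was called lower by edgeR in replicates 1 and 2 with the block, at -0.18 with an adjusted p of 0.00982, beside 7.03% of all genes. In number 3, outside that fit, its difference was 0.13. ITGB3, the beta chain of the vitronectin receptor, which also binds fibronectin, was at 57.6, 63.3 and 64.3 CPM in copper replicates 1, 2 and 3 and at 46.2, 42.3 and 53.7 CPM in control replicates 1, 2 and 3. The groups did not overlap, as in 10.8% of all genes tested. The log2 fold change was 0.38 (SE 0.12), with unadjusted p = 0.0120 and adjusted p = 0.99987 by edgeR. In replicates 1 and 2 alone it was 0.45, with an adjusted p of 0.0237 by edgeR. Of 16 tested receptor and adhesion genes (of 18), 6 were higher and 10 lower, with a median of -0.09. Besides ITGB3, 1 had an unadjusted p under 0.05, TNS1 (log2 fold change -0.48, SE 0.20), chosen after its values were seen. With the replicate block TNS1 was at -0.50 (SE 0.09; adjusted p = 0.145 by edgeR).

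Of filament genes and linkers that work beside vimentin, 9 of 12 were tested, with 4 higher, 5 lower, a median of -0.07 and 0 at an unadjusted p under 0.05. The smallest p was that of LMNB1, a nuclear lamin, with a log2 fold change of -0.22 (SE 0.12), and of -0.12 in replicates 1 and 2 alone. Of a list of 8 noncoding RNAs, 7 named for a switch gene or SNAI3 and 1, SNHG28, on a chromosome that holds none of them, 3 were tested (ZEB1-AS1, VIM-AS1 and SNAI3-AS1). All 3 estimates were higher, with a median of 0.12 and 0 at an unadjusted p under 0.05. VIM-AS1, which begins beside the VIM start on the other strand, was at 5.90 ± 2.40 CPM in copper and 4.56 ± 1.54 in control (SD, n = 3 each), a log2 fold change of 0.37 (SE 0.35). Without copper replicate 3 it was -0.00344.

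**Figure D4:**
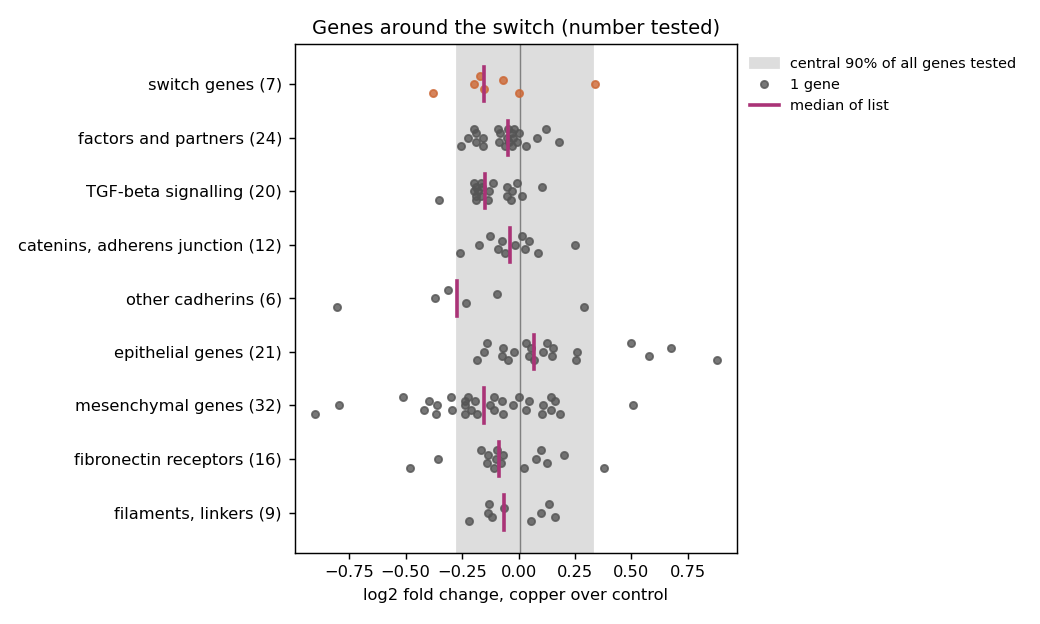
Log2 fold change of each tested gene (points) in the switch set and 8 lists around it, with the median of each list (line) and the central 90% of all 12944 genes tested (grey, -0.27 to 0.33). The list medians run from -0.27 for other cadherins to 0.07 for epithelial genes, beside 0.0052 over all genes.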

How the data were processed

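RNA from 6 cultures was sequenced after preparation with a kit that keeps strand, per the labels. The authors deposited raw counts per gene. The submitters' processing notes name STAR, FastQC, edgeR and build GRCh38, with no role or version. The counter, its use of strand and of multi-mapping reads, and the annotation are not given in the sources used here. Positions are those of the deposited table, written from 1. For 7 of the 10 switch genes both ends lay within 1000 bases of RefSeq GRCh38.p14. The lower coordinate differed from RefSeq by 18087 bases for CDH2 and 2421 for TWIST1, and the upper coordinate by -23277 for TWIST2. The 5 entries without a symbol (0.000814% of counts) were left out.

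Counts were tested with edgeR 4.0.16 (quasi-likelihood test, TMM scaling, filterByExpr with a minimum count of 10) in R 4.3.3, and p-values were adjusted by Benjamini-Hochberg over 12944 genes, with a threshold of 0.05. All adjusted p-values are from edgeR unless DESeq2 1.42.0 or limma 3.58.1 is named. CPM is the count per 1000000 counts of the genes tested, with each library total scaled by TMM. Scripts were tested on simulated data. Alternatives were other scalings, filters, prior counts and tools, leaving out libraries, and a replicate block. The deviations of same-numbered libraries from their group means correlated across genes at 0.46, 0.40 and 0.65 for numbers 1, 2 and 3. The largest correlation of each copper library with a control library of another number was 0.32, 0.27 and -0.45. The pairing is thus clear for number 3 and weak between numbers 1 and 2, and it is seen in the data only. No 2 libraries of a group agreed within sampling noise (chi-square per degree of freedom at least 5.04).

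The switch genes and lists were chosen with earlier results of these data known. The text names all switch genes, 20 genes set for their role (1 further gene of that set is not reported here), the tested gene with the smallest p of each list, and the 3 genes most like ZEB2. PAX8, CA9, LUM, MYH11, PTPRC and CDH5, from the lists of cell type markers, and the antisense RNAs other than VIM-AS1, SNHG28 and the miR-200 genes were named outside this rule, after their values were seen.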

Additional observations from a re-analysis of the deposited data

How the results depend on the processing

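With 0 genes called by edgeR in the 6 libraries, 12 were called without a filter, 27 by DESeq2, 22 with the replicate block, 111 in replicates 1 and 2 only, 912 in replicates 1 and 2 with the replicate block, and 0 to 15 when 1 library was left out, with 15 without copper replicate 3. The cause was not tested. The number of switch genes called was 0 in 17 of 18 alternatives and 1, SNAI1, in replicates 1 and 2 with the replicate block. The lists, with 143 genes tested in the 6 libraries, held 1 called gene, KRT19, without a filter, by DESeq2 and with the replicate block. They held 4 in replicates 1 and 2 (COL6A2, ITGB3, KRT19 and TGFB1) and 23 there with the replicate block. Those 2 fits called 0.856% and 7.03% of all genes, and the second has 1 residual degree of freedom per gene. The block changed no other call of a named gene in the 6 libraries except MT2A (adjusted p from 0.0843 to 0.00516). Over 38 named genes, 623 alternative log2 fold changes kept their direction and side of the threshold, 23 passed it and 38 changed sign. VIM became -0.0152 without a filter, -0.00944 by limma-voom, -0.0090 with the replicate block, -0.119 in replicates 1 and 2 and -0.117 there with the block. In replicates 1 and 2, CTNNB1 became 0.0352, TJP1 0.0334 and ITGB1 0.0723, and with the block 0.0352, 0.0335 and 0.0721. Upper-quartile scaling gave CTNNB1 0.00245, KRT18 0.00222 and LOXL2 0.0201, and scaling by total counts gave 0.00899, 0.0064 and 0.0224. With 1 library left out, the log2 fold changes that changed sign ran from -0.157 to 0.0818 for VIM, -0.0189 to 0.583 for FN1, -0.00344 to 0.589 for VIM-AS1, -0.486 to 0.0617 for CDH6, -0.116 to 0.0768 for CTNNB1, -0.163 to 0.000227 for GSK3B, -0.206 to 0.0202 for ITGA5, -0.229 to 0.0668 for ITGB1, -0.15 to 0.123 for KRT18, -0.201 to 0.0328 for KRT8, -0.123 to 0.0793 for LOXL2, -0.477 to 0.0752 for SMAD3, -0.424 to 0.0027 for TGFB1 and -0.217 to 0.16 for TJP1. At 3 or fewer counts per library, CDH1, TWIST1 and TWIST2 are too shallow for a difference to be read.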
